A study of Mus musculus with 139 samples.

Results

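This account compares outer hair cells (OHCs) from the middle of the mouse cochlea with OHCs from its apex. Members were chosen by their labels alone: 23 cells titled as middle OHCs and 21 titled as apical OHCs, 44 of the 139 single cells in the series. The study sequenced the RNA of single hair cells along the cochlear spiral to ask how hair cells tuned to different frequencies differ. All cells came from mice between postnatal days 14 and 16, and the sources used here do not name the strain, genotype, sex or number of animals. No treatment is named for either group, and each sample is 1 cell. Since no label ties cells to animals, each group counts as 1 sample, so no test was run, no replicate check exists and differences are given as sizes.

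OHCs are the electromotile receptor cells of the organ of Corti. Their lateral membrane holds the motor protein prestin (Slc26a5), which shortens and lengthens the cell with voltage and so amplifies the vibration of the basilar membrane. Sound opens mechanotransduction channels at the tips of stereocilia, and cholinergic efferent fibres from the brainstem inhibit the cell through the alpha9 alpha10 nicotinic receptor and the SK2 potassium channel. The apex of the spiral is tuned to low frequencies and the base to high ones, with the middle in between, and OHCs mature from base to apex around the onset of hearing.

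The cell titles carry a running number whose meaning the labels do not give. Cells with a number above 100 are called higher-numbered here (7 middle, 12 apical), and the others lower-numbered (16 middle, 9 apical). The higher-numbered cells gave 73.8% of the 94869815 counts of the middle group and 82.2% of the 102704914 counts of the apex. Every higher-numbered cell, 7 of 7 and 12 of 12, had at least 10 CPM (counts-per-million, a gene's count relative to its cell's total) of both Ocm and Slc26a5. Among the lower-numbered cells 2 of 16 middle and 2 of 9 apical cells did, so the OHC label is borne out by both markers in 9 of 23 and 14 of 21 cells. Each result is therefore given pooled and within each series of title numbers.

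Depth and gene detection differed between the regions. Higher-numbered middle cells had 6514854 to 12100685 counts each and apical cells 858671 to 13576942. Detected genes ran from 8263 to 11380 in the 7 middle cells and from 2582 to 6849 in the 12 apical cells, with no overlap. After each cell was thinned to 479712 counts the ranges were 4950 to 8591 and 2195 to 4516, again without overlap. In the lower-numbered cells, detection ran from 681 to 15134 genes in the middle and from 2013 to 14257 at the apex and overlapped fully. Whether the difference in detected genes has a part in the gene differences below was not tested.

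**Figure D1:**
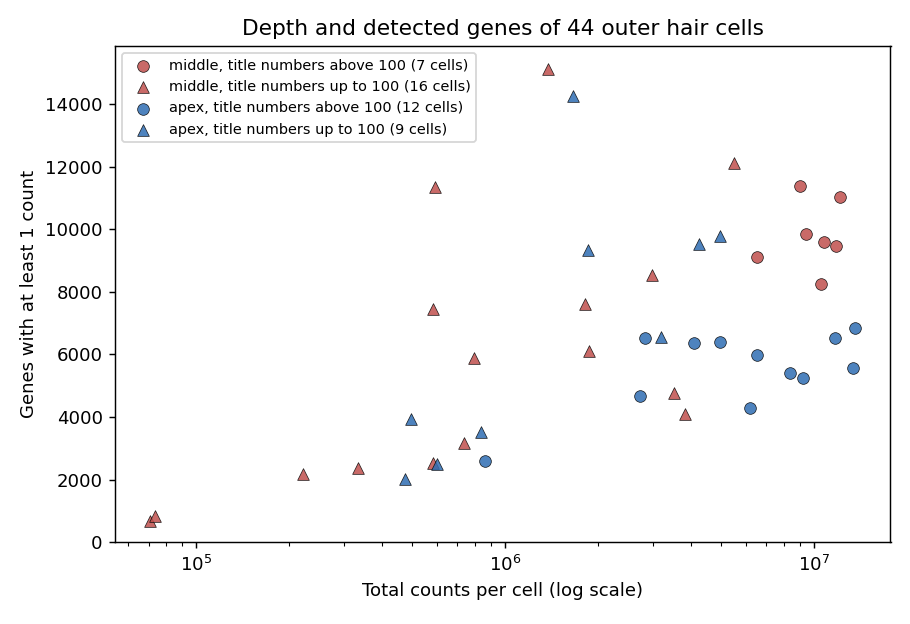
Genes with at least 1 count (y axis) against total counts per cell (x axis, log scale) for the 44 OHCs, 1 point per cell. The 7 higher-numbered middle cells (red circles) lie between 8263 and 11380 genes, above the 12 higher-numbered apical cells (blue circles), while the lower-numbered cells (triangles) overlap.

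For the pooled comparison each group's cells were added up, scaled to CPM with TMM factors (a trimmed mean that corrects for library composition) and compared as the log2 ratio of (CPM + 1), middle over apex. Of 11296 genes with at least 5 CPM in either group, 3903 (34.6%) were 2-fold or more higher in the middle and 4427 (39.2%) 2-fold or more lower. The higher-numbered cells gave 3930 (34.8%) higher and 4388 (38.8%) lower, and the lower-numbered cells 1995 (17.7%) and 2068 (18.3%). The filter was set on the pooled sums, so the lower-numbered cells kept genes with little signal there, whose ratios the added 1 CPM draws towards 0. In that series 7233 genes were in neither class. The part of this floor in the smaller shares and list medians of that series was not tested. A ratio of 2-fold or more in the same direction pooled and in both series was found for 594 genes (5.26%) on the higher and 693 (6.13%) on the lower side. A 2-fold ratio between these sums is therefore common, and the counts for each gene group below are to be read against these shares. The median log2 ratio of all genes was -0.22 with TMM, 0.18 with total counts alone and -0.56 with DESeq2 size factors.

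The summed counts and the typical cell did not give the same picture. By the median of the higher-numbered cells, 5194 genes were 2-fold or more higher in the middle and 404 lower, and the median log2 ratio of all genes was 0.60. Measures by the median or mean of the cells use each cell's own total without TMM, so they differ from the sums in scaling too. The part of the scaling in this contrast was not tested. List medians by this measure are to be read against that value. Many of the genes described below were at 0 in some apical cells and above 100 CPM in others, so their apical sum was high while their apical median was low. Levels per cell below are CPM of the cell's own total, and pooled levels are TMM-scaled CPM.

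**Figure D2:**
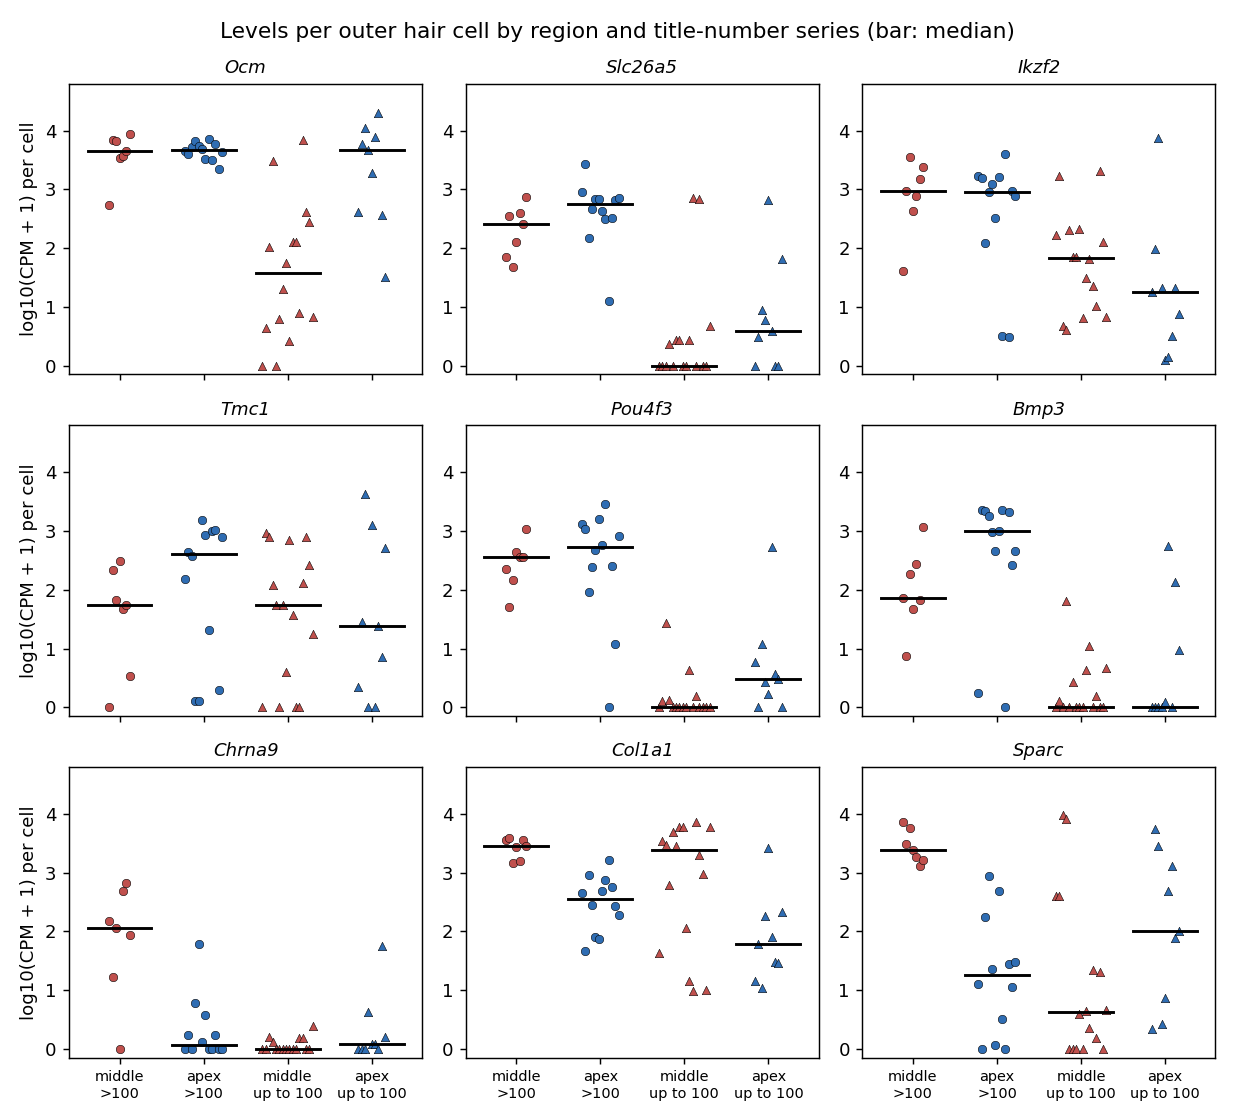
Level of 9 genes in each OHC as log10(CPM + 1) (y axis), by region and title-number series (x axis), with a bar at the median. In the higher-numbered cells Ocm had medians of 4450 and 4619 CPM, Bmp3 and Slc26a5 had lower medians in the middle than at the apex, and Chrna9, Col1a1 and Sparc had higher ones.

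Genes that define OHCs were in part lower in the middle. Of 22 OHC markers 19 passed the filter, of which 10 were 2-fold or more lower, 1 was higher and the median log2 ratio was -1.01. In the higher-numbered cells 12 were lower and 1 higher (median -1.34), and in the lower-numbered cells 7 were lower and 6 higher (median -0.03). Bmp3, Aqp11 and Lbh were 2-fold or more lower pooled and in both series. By the median of the higher-numbered cells the list stood at 0.03, where all genes stood at 0.60. Inner hair cells also gave 10 of the 19 lower and 6 higher between middle and apex (median -1.09). Of all genes 19.7% were lower and 27.9% higher there (median 0.08), so the lower level of these markers was not particular to OHCs.

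Slc26a5, which encodes prestin (ENSMUSG00000029015.9, chr5:21810655-21865604 of GRCm38, minus strand), ran from 46.8 to 737 CPM with a median of 252 in the higher-numbered middle cells. The apical cells of that series ran from 11.6 to 2650 CPM with a median of 558, so the ranges overlapped. Summed, Slc26a5 stood at 207 CPM (95% Poisson interval 204 to 209) in the middle and 697 CPM (692 to 702) at the apex, a log2 ratio of -1.75. These intervals cover counting error only and say nothing of the spread between cells. It was 0 in 9 of 16 lower-numbered middle cells and 3 of 9 lower-numbered apical cells, and that series gave a ratio of -0.03. At equal depth 13 of 19 middle cells had a read of Slc26a5 (68.4%, exact 95% interval 43.5 to 87.4) and 17 of 20 apical cells (85%, 62.1 to 96.8), against 17.9% of 84 inner hair cells (IHCs). Without thinning the counts were 14 of 23 and 18 of 21 cells.

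Ocm, which encodes the calcium buffer oncomodulin (chr5:144019804-144026670, minus strand), differed little between the higher-numbered cells. It ran from 541 to 8930 CPM with a median of 4450 in the middle and from 2257 to 7216 CPM with a median of 4619 at the apex. The apical range lay within the middle range, and the ratio of the sums in this series was -0.41. In the lower-numbered cells the median was 36.5 CPM in the middle and 4711 CPM at the apex, and the ratio was -1.95. Ikzf2, the transcription factor helios that OHCs need for their identity, had medians of 939 and 916 CPM in higher-numbered middle and apical cells and a ratio of 0.03.

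Bmp3, a secreted signalling protein, ran from 6.6 to 1162 CPM with a median of 72 in higher-numbered middle cells. At the apex it ran from 0 to 2315 CPM with a median of 999, and 10 of 12 apical cells stood above 100 CPM against 3 of 7 middle cells. The pooled ratio of Bmp3 was -2.73, with -2.61 and -4.10 in the series. Aqp11, an aquaporin, had medians of 189 and 293 CPM in the higher-numbered cells and a pooled ratio of -1.63. Lbh, a transcriptional cofactor of OHCs, had medians of 399 and 601 CPM there and a pooled ratio of -1.29. The ranges of all 3 genes overlapped between the regions.

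The efferent receptor subunits had pooled ratios of opposite sign, and neither sign held under every choice of cells. Chrna9, the alpha9 subunit (chr5:65934921-65977326, plus strand), stood at 136 CPM in the middle and 9.33 CPM at the apex, a log2 ratio of 3.73. It was at or above 10 CPM in 6 of 7 higher-numbered middle cells and 1 of 12 apical cells, while no lower-numbered middle cell reached 10 CPM and that series gave -0.89. Chrna10, the alpha10 subunit, stood at 3.14 and 81.9 CPM, a ratio of -4.32, and the apical sum came from 3 of 12 higher-numbered cells above 100 CPM, 7 others being at 0. The sign of Chrna10 turned in the lower-numbered cells (0.16) and by the median of the higher-numbered cells (0.36). The value of 0.16 is near the floor: no lower-numbered cell reached 10 CPM of Chrna10, and 13 of 16 middle and 8 of 9 apical cells were at 0. Chrna10 shares exon sequence with the opposite-strand gene Art1. Kcnn2, which encodes SK2, had a pooled ratio of -1.01 but a median of 46.8 CPM in higher-numbered middle cells against 0.785 CPM at the apex. Of the 11 efferent synapse genes measured, 3 were higher and 5 lower (median 0.03, and -0.27 with DESeq2 size factors). The pooled extremes were Ryr1, a calcium release channel (4.8), and Dok7, a cholinergic postsynaptic adaptor (-4.33). Of the efferent genes 0 were 2-fold or more in the same direction pooled and in both series. Dok7 reached 10 CPM in 5 of 7 higher-numbered middle and 5 of 12 apical cells, and 0 and 5 were at 0. In the lower-numbered cells 2 of 16 and 0 of 9 did. Ryr1 reached 10 CPM in 7 of 7 and 2 of 12 higher-numbered cells, but in 1 of 16 and 1 of 9 lower-numbered cells.

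General hair cell genes were mostly lower in the middle when summed. Of 19 measured, 12 were 2-fold or more lower and 3 higher, with a median of -1.56 pooled, -1.40 in the higher-numbered cells and -0.15 in the lower-numbered cells. By the median of the higher-numbered cells it was 0.64, close to the 0.60 of all genes. Pou4f3, a transcription factor for hair cell survival, ran from 50.4 to 1066 CPM with a median of 358 in higher-numbered middle cells and from 0 to 2939 CPM with a median of 528 in apical cells. Its pooled ratio was -1.56. Pcp4, a calmodulin-binding peptide, had medians of 10.9 and 140 CPM in the same cells and a pooled ratio of -3.29. Otof, the calcium sensor of transmitter release, was 25.5 CPM in the middle and 213 CPM at the apex (-3.01), with -2.54 and -4.88 in the series. Ush1c, which encodes the bundle scaffold harmonin, was the steady exception at 265 and 130 CPM, a ratio of 1.02.

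Of 12 measured genes of the mechanotransduction complex, 5 were 2-fold or more lower in the middle (41.7%) and 3 higher (25%). Of all genes 39.2% were lower and 34.6% higher. The median of the complex was -0.78 pooled, -1.03 in the higher-numbered and -0.70 in the lower-numbered cells, but 0.21 by the median of the higher-numbered cells. Tmc1, the pore-forming channel subunit, had a median of 53 CPM (0 to 310) in higher-numbered middle cells and 405 CPM (0.295 to 1548) in apical cells. It was pooled at 131 and 514 CPM, a ratio of -1.96, with -2.36 and -1.67 in the series. Clrn1, the Usher protein clarin 1, had medians of 26.7 and 164 CPM in the higher-numbered cells and a pooled ratio of -3.59. In these cells 8 of 12 apical and 0 of 7 middle cells were above 100 CPM of Clrn1.

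Pcdh15, which encodes the lower part of the tip link (chr10:73099342-74649737, plus strand), had the lowest ratio of the complex, -5.74. It stood at 2.07 CPM (Poisson interval 1.83 to 2.34) in the middle and 163 CPM (160 to 165) at the apex. The apical level came from few cells: 3 of 12 higher-numbered and 1 of 9 lower-numbered cells were above 100 CPM, while 6 and 4 were at 0. By the median of all cells the ratio of Pcdh15 was 0.44. Lhfpl5, a partner of Tmc1 and Pcdh15, had medians of 273 and 1421 CPM in the higher-numbered cells (ratio -1.73), and in the lower-numbered cells the direction turned (6.46). Tomt, needed to bring the channel to the bundle, was the highest member at 10.2 and 1.88 CPM, a ratio of 1.96.

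Among 31 genes of the stereocilia bundle, 11 were 2-fold or more lower (35.5%) and 2 higher (6.45%), against 39.2% and 34.6% of all genes. Their median of -0.39 moved to 0.01 with total counts and 1.98 by the median of the higher-numbered cells. Espn, Xirp2, Eps8l2, Capzb and Clic5 were lower pooled and in both series. For Eps8l2 and Capzb, however, 5 and 4 of 7 higher-numbered middle cells reached 10 CPM, against 4 and 3 of 12 apical cells. At 0 were 6 and 2 of these apical cells and 0 middle cells, while 2 apical and 0 middle cells reached 100 CPM of each gene. Espn, the actin bundler espin, had medians of 110 and 230 CPM in the higher-numbered cells and a pooled ratio of -2.21. Clic5, a protein of the bundle's base, had medians of 59.7 and 180 CPM and a ratio of -1.65. Xirp2, an actin repair protein of stereocilia, had a ratio of -3.27, but its medians were 0.111 and 1.64 CPM. Espnl, the espin-like protein, was the highest at 29.1 and 0.219 CPM (4.63), with 2.92 to 159 CPM in the 7 higher-numbered middle cells and at most 1.47 CPM in the apical cells. Strc, the stereocilin gene that attaches the bundle to the tectorial membrane, was 32.1 and 42.5 CPM.

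Lateral wall genes and those of the cortical cytoskeleton, which links the motor protein to the cell's skeleton, had a median near 0. Of 21 measured, 5 were higher and 3 lower, with a median of 0.25 that moved to -0.10 with DESeq2 size factors and stood at 2.46 in the lower-numbered cells. The erythrocyte-like proteins Tmod3 (tropomodulin 3, 3.23) and Epb41l3 (-2.12) were the extremes. Sptan1, alpha spectrin, had a median of 84.7 CPM in higher-numbered middle cells and 1.82 CPM in apical cells, a pooled ratio of 0.92. Sptb, a beta spectrin, had a pooled ratio of -0.97.

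Among 16 potassium channel genes 7 were 2-fold or more higher and 3 lower (median 0.60, with 0.47 in the higher-numbered and 0.10 in the lower-numbered cells). Kcnab1 and Kcnab2, which encode auxiliary beta subunits, were higher pooled and in both series, with pooled ratios of 3.04 and 1.32. Kcnma1, the BK channel, was 120 and 136 CPM.

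Of 38 calcium genes 15 were 2-fold or more lower (39.5%) and 11 higher (28.9%), against 39.2% and 34.6% of all genes. Their median was -0.46, -0.07 with total counts, 0.17 in the lower-numbered cells and 0.83 by the median of the higher-numbered cells. Calb1, calbindin, had a median of 149 CPM (0.279 to 258) in higher-numbered middle cells. It was 0 in 11 of 12 apical cells of that series, and the other stood at 150 CPM. Its pooled ratio was 2.01, and the direction turned in the lower-numbered cells (-1.37). Pvalb, parvalbumin, had medians of 192 and 70.3 CPM in the higher-numbered cells and ratios of 1.10 there and -6.03 in the lower-numbered cells. Cacna1d, the L-type channel of hair cells, was 217 and 464 CPM (-1.09), with -1.0 and -1.19 in the series. Atp2b2, the calcium pump of the bundle, was 1030 and 1152 CPM (-0.16). Atp2a3, a pump of the endoplasmic reticulum, was higher in both series, with a pooled ratio of 4.85 and 3.58 in the lower-numbered cells.

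Ribbon and afferent synapse genes showed no common direction: 12 of 39 were higher and 14 lower, with a median of -0.25 that was 0.15 with total counts and 1.65 by the median of the higher-numbered cells. Syt7, a synaptotagmin, was the highest (3.66) and Rab3b, a vesicle-bound GTPase, the lowest (-3.92). Erc1, an active zone protein, was lower summed in both series with a pooled ratio of -3.29. Yet 6 of 7 higher-numbered middle cells and 3 of 12 apical cells reached 10 CPM of Erc1, and 0 and 6 were at 0. In each series 2 apical cells and 0 middle cells reached 100 CPM. Hair cell transcription factors were lower in 12 of 28 cases (42.9%) and higher in 6 (21.4%), against 39.2% and 34.6% of all genes. Their median was -0.54 pooled, -0.12 with total counts and 0.71 by the median of the higher-numbered cells. Zbtb38, a zinc-finger protein that binds methylated DNA, had medians of 649 and 2890 CPM in the higher-numbered cells and a pooled ratio of -1.91. Id2 and Id4, inhibitors of basic helix-loop-helix factors, had pooled ratios of -1.89 and -3.45, and Bhlhe41, a clock-related repressor, -2.67. These 4 and Pou4f3 were lower pooled and in both series. IHCs gave 13 of the 28 transcription factors lower and 5 higher between middle and apex (median -0.75), against 19.7% and 27.9% of all genes.

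**Figure D3:**
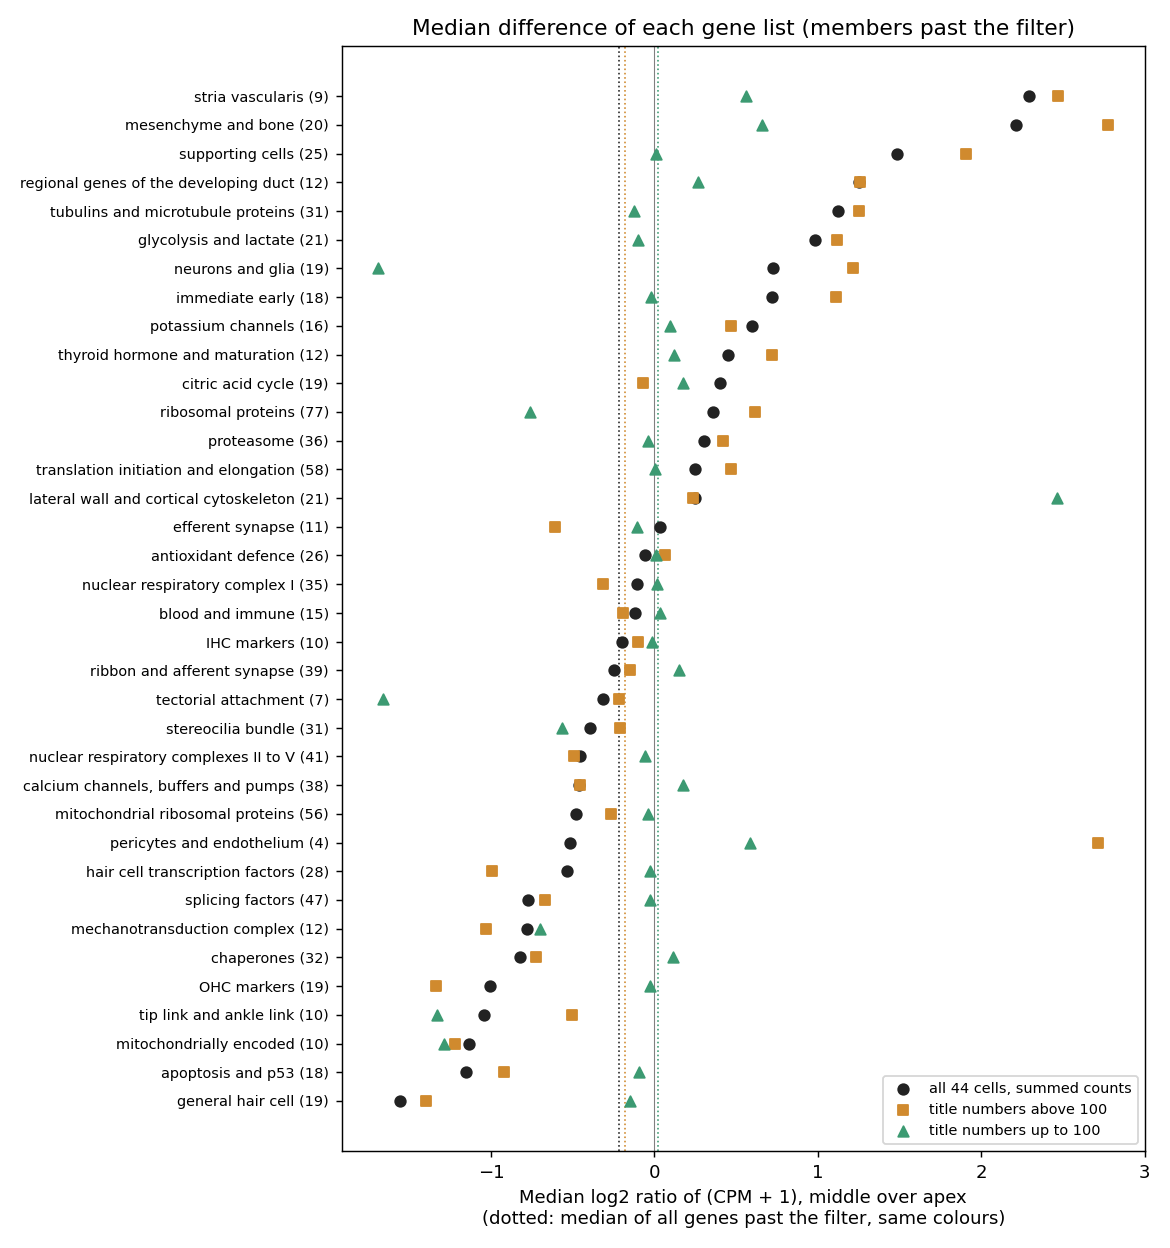
Median log2 ratio of (CPM + 1), middle over apex (x axis), of each gene list (y axis, members past the filter in brackets) for all 44 cells, the higher-numbered and the lower-numbered cells, with dotted lines at the median of all genes. Mesenchyme and stria lists stand at 2.21 and 2.29 pooled and general hair cell genes at -1.56, and most lists of the lower-numbered cells lie near 0.

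Among markers of cells other than hair cells, those of mesenchyme and bone were mostly higher in the middle OHCs. Of 20 markers of mesenchyme and bone, all 20 passed the filter, 16 were 2-fold or more higher and 1 lower, and the median was 2.21. The higher-numbered cells gave 18 higher and 1 lower (median 2.78) and the lower-numbered cells 9 higher and 2 lower (median 0.66). Summed per cell, this list ran from 7500 to 18585 CPM in the 7 higher-numbered middle cells and from 79.9 to 3030 CPM in the 12 apical cells, without overlap. In the lower-numbered cells it had medians of 7210 and 1653 CPM and overlapping ranges. Tbx18 and Otor were at 0 in every higher-numbered apical cell. IHCs also gave 11 of 20 higher and 3 lower between middle and apex (median 1.38), against 27.9% of all genes higher and 19.7% lower in IHCs.

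Col1a1, a chain of bone and connective tissue collagen, ran from 1479 to 3924 CPM with a median of 2848 in higher-numbered middle cells. At the apex it ran from 45.8 to 1679 CPM with a median of 362, and 2.39 was the pooled ratio. Sparc, a matrix glycoprotein abundant in bone, ran from 1326 to 7390 CPM in the same middle cells and from 0 to 888 CPM in apical cells, without overlap. Col2a1, the cartilage collagen, ran from 88.3 to 1321 CPM against 0 to 69.3 CPM, also without overlap (pooled 5.64). In the lower-numbered cells the medians of Col1a1 were 2409 and 59.2 CPM, whereas those of Col2a1 were 0 and 0.539 CPM. The part of RNA from such cells in the differences of other genes was not tested.

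Supporting cell markers were higher in 16 of 25 cases and lower in 4 (median 1.48, and 0.01 in the lower-numbered cells). Their summed level ran from 2254 to 6137 CPM in higher-numbered middle cells and from 363 to 3938 CPM in apical cells. Kcnj10, a glial and strial potassium channel, was the highest at 41.8 and 0.219 CPM (5.13), and it was at most 0.0854 CPM in any higher-numbered apical cell. Neuron and glia markers were higher in 8 of 19 cases and lower in 5 (median 0.72), and the lower-numbered cells gave 3 higher and 11 lower (median -1.69). Mbp, a myelin protein, ran from 48.3 to 2583 CPM in the higher-numbered middle cells and from 0 to 26.4 CPM in the apical cells. The 9 stria vascularis markers measured had 6 higher and 3 lower (median 2.29, 1.23 by the mean of the cells and 0.56 in the lower-numbered cells). Kcnj10 and Cldn11 were higher pooled and in both series and are also on the supporting cell and mesenchyme lists, while Atp1b2 and Kcnq1 were lower. The 15 blood and immune markers had a median of -0.12 (4 higher, 6 lower), which was 0.29 with total counts. Only 4 markers of pericytes and endothelium passed the filter, 2 higher and 2 lower.

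Markers of IHCs, the other hair cells of the organ, were also examined. Of 10 measured, 3 were higher and 4 lower (median -0.20, and 0.19 with total counts), and their summed level ran from 153 to 798 CPM in higher-numbered middle cells and from 141 to 1558 CPM in apical cells. Atp2a3 was the highest of these markers and Otof the lowest, and each kept its direction at 2-fold or more pooled and in both series. Slc17a8, the vesicular glutamate transporter that defines IHCs, was at most 1.72 CPM in any middle cell and 51.5 CPM in any apical cell. Tbx2, a transcription factor that sets IHC identity, was 34.4 and 4.32 CPM, a ratio of 2.73.

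**Figure D4:**
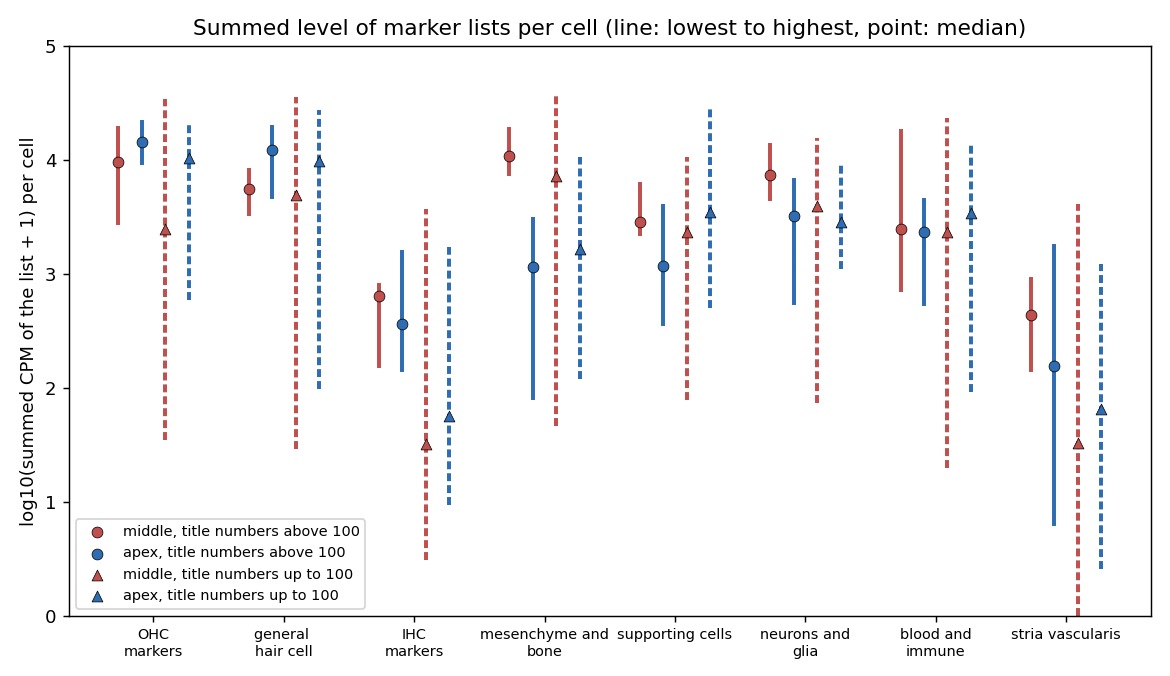
Summed level of each marker list per cell as log10(CPM + 1) (y axis), with a line from the lowest to the highest cell and a point at the median for each region and title-number series. Mesenchyme and bone markers of the higher-numbered cells separate the regions, from 7500 to 18585 CPM in the middle and from 79.9 to 3030 CPM at the apex, and OHC markers overlap.

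Mitochondrially encoded genes were in part lower in the middle, while their summed level per cell depended on the series. The 13 genes together had medians of 38701 CPM in higher-numbered middle cells and 25647 CPM in apical cells. In the lower-numbered cells these were 5150 and 10817 CPM, and the ranges overlapped in both series. Of 10 mitochondrially encoded genes measured, 5 were 2-fold or more lower and 1 higher, with a median of -1.13 pooled, -1.22 and -1.29 in the series and -1.36 by the median of the higher-numbered cells. The complex I subunit genes mt-Nd1, mt-Nd2, mt-Nd4, mt-Nd5 and mt-Nd6, were lower pooled and in both series. The level of mt-Nd2 ran from 415 to 2857 CPM in higher-numbered middle cells and from 1401 to 6618 CPM in apical cells. The single higher gene was mt-Co1, a subunit of cytochrome oxidase, at 20735 and 6064 CPM (1.77), and 1 cell held 42.8% of its middle counts. In IHCs 6 of the 10 were lower and 1 higher between middle and apex (median -1.32), where 19.7% of all genes were lower and 27.9% higher. The nuclear genome holds near-identical copies of mitochondrial genes, and the sources used here do not say how the counting treated such reads.

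Glycolysis and lactate genes stood higher in 10 of 21 cases and lower in 3 (median 0.98), although the lower-numbered cells gave 4 higher and 5 lower (median -0.10). Ldha, lactate dehydrogenase A, was higher pooled and in both series at 80.0 and 7.09 CPM (3.32), and 1 cell held 74.1% of its middle counts. Slc2a1, the glucose transporter GLUT1, was the highest (3.70), with a median of 213 CPM in higher-numbered middle cells and 0 in apical cells. Pfkm, a phosphofructokinase, was lower summed, pooled (-1.23) and in both series, but was at 0 in 9 of 12 higher-numbered apical cells and in 0 of 7 middle cells. The nuclear genes of respiratory complex I had 9 of 35 higher and 13 lower (median -0.11, and 0.30 with total counts), and those of complexes II to V 9 of 41 higher and 14 lower (median -0.46, -0.05 with total counts, and 1.81 by the median of the higher-numbered cells).

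Tubulins and microtubule proteins were higher in 16 of 31 cases and lower in 6, with a median of 1.12 pooled and 1.25 in the higher-numbered cells but -0.13 in the lower-numbered cells. Tubb2a, a beta tubulin, was the highest at 33 and 0.179 CPM (4.85) and was at 0 in every higher-numbered apical cell. Map1b, a neuronal microtubule protein, was lower pooled and in both series (-1.29), and Tuba1c, Mapt and Kif5a were higher (2.57, 4.14 and 3.82). Alpha tubulin genes are near-identical, so reads may have been split among them. Chaperones were lower in 14 of 32 cases (43.8%) and higher in 6 (18.8%), against 39.2% and 34.6% of all genes. Their median was -0.83, but 1.64 by the median of the higher-numbered cells and 0.11 in the lower-numbered cells. They ran from Cct7, a chaperonin subunit (5.66), to Hsp90b1, an endoplasmic chaperone (-2.66). Apoptosis and p53 genes were lower in 9 of 18 cases and higher in 4 (median -1.16, but 3.71 by the median of the higher-numbered cells). Cdkn1a, the p21 cell cycle inhibitor, was their highest member (4.63), with 34.9 to 634 CPM in higher-numbered middle cells and 0 to 22.5 CPM in apical cells.

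Immediate early genes, which cells switch on within minutes of stimulation or dissociation, were higher in 9 of 18 cases and lower in 4 (median 0.72). Klf4, their highest member (6.32), ran from 1.33 to 414 CPM in the higher-numbered middle cells and was at most 0.221 CPM in the apical cells. In the lower-numbered cells 1 was higher and 3 lower (median -0.02). The pooled median of 0.72 was 0.05 by the mean of the cells, 0.12 with thinned cells and 2.43 by the median of the higher-numbered cells. Genes regional in the developing duct gave 6 of 12 higher and 3 lower, from Lin28b, an inhibitor of let-7 processing (4.74), to Inhba, an activin subunit (-2.52). Their median was 1.25 pooled, 0.27 in the lower-numbered cells and 0.51 by the mean of the cells. Fgf10, Wnt5a and Epha7 were higher pooled and in both series, with pooled ratios of 3.66, 1.74 and 1.98. Few cells held Fgf10 and Epha7. Fgf10 reached 10 CPM in 2 of 7 higher-numbered and 3 of 16 lower-numbered middle cells and in 0 apical cells. Epha7 did in 2 of 7 middle and 1 of 12 apical higher-numbered cells, and in 1 of 16 and 1 of 9 lower-numbered cells.

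A rule across all genes then named large differences with the same sign in both series. A gene needed at least 10 CPM and reads in at least 50% of the cells of the higher group, no cell with more than 50% of that group's counts, a difference of 2-fold or more both pooled and between the mean cells, and the same direction in both series. It was met by 285 genes on the higher and 296 on the lower side, and the 12 in each direction whose smallest log2 ratio (of pooled, mean cell and each series) was largest were named. Because the rule used these ratios, they are a description and support nothing further.

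Higher in the middle were Alcam, Dixdc1, Wdfy2, Ppp1r16b, Fzd6, Slc52a2, Lamb2, Ildr2, Bglap, Tcirg1, Ncmap and Adcy1, with pooled ratios from 4.21 to 7.16. Wdfy2, an endosomal FYVE-domain protein (chr14:62837678-62961509, plus strand), was found in all 7 higher-numbered middle cells at 54.3 to 882 CPM and reached at most 16.9 CPM in the 12 apical cells. Its sum was 219 CPM in the middle (Poisson interval 217 to 222) and 0.537 CPM at the apex (0.403 to 0.701). Alcam, a cell adhesion molecule of the immunoglobulin family (chr16:52248996-52454074, minus strand), had a median of 252 CPM in those middle cells and 0 in the apical cells, where the highest cell had 15.1 CPM. Lamb2, a laminin chain of basement membranes, ran from 2.56 to 242 CPM against at most 0.147 CPM. Fzd6, a Wnt receptor of planar polarity, was at or above 10 CPM in 6 of 7 middle and 0 of 12 apical cells of this series.

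In the lower-numbered middle cells the same 12 genes rested on few cells. Alcam was at or above 10 CPM in 2 of 16 cells, 1 of which had 8779 CPM, and its median was 0.441 CPM. Bglap, which encodes osteocalcin of bone, was at or above 10 CPM in 4 of 16, and Ncmap, a myelin-associated protein, in 3 of 16. Bglap has the near-identical neighbour Bglap2, so its value is uncertain. Adcy1, a calcium-stimulated adenylyl cyclase, had medians of 5.07 and 0 CPM in the higher-numbered cells and a pooled ratio of 4.21. Across IHCs 6 of the 12 were 2-fold or more higher between middle and apex and 2 lower, against 27.9% and 19.7% of all genes.

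Lower in the middle were Ifit1, Kank1, Ing5, Uba6, Ccz1, Dusp8, Dnase2a, Net1, Srsf2, Ufsp2, Zcchc17 and Trim71, with pooled ratios from -6.29 to -3.86. Dusp8, a phosphatase that inactivates stress-activated kinases (chr7:142079490-142095843, minus strand), had a median of 47.7 CPM (3.63 to 497) in higher-numbered middle cells and 1374 CPM (0 to 3478) in apical cells. Srsf2, a splicing factor, had medians of 38.9 and 539 CPM in the same cells, and Kank1, a regulator of cortical actin, 0 and 378 CPM. Uba6, a ubiquitin-activating enzyme (chr5:86109287-86172803, minus strand), was at most 0.190 CPM in any higher-numbered middle cell and at or above 10 CPM in 6 of 12 apical cells. Its sums were 0.201 CPM (0.130 to 0.297) and 93.3 CPM (91.4 to 95.2).

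The ranges of all 12 lower genes overlapped, since each was at 0 in at least 1 higher-numbered apical cell. For Dnase2a and Ufsp2 the higher-numbered medians went the other way, at 1.49 and 1.07 CPM for the first and 3.80 and 0.0597 CPM for the second. Net1, an exchange factor for RhoA, reached 177770 CPM in 1 apical cell, and 1 cell held 46.1% of its apical counts. In IHCs 7 of the 12 were 2-fold or more lower between middle and apex and 2 higher, against 19.7% and 27.9% of all genes. Wdfy2, Fzd6, Ildr2, Ccz1, Dusp8, Dnase2a, Srsf2, Ufsp2, Zcchc17 and Trim71 overlap an exon of a gene on the other strand. The sources used here do not say whether the counting used strand, so reads from the 2 genes of a pair may be mixed.

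**Figure D5:**
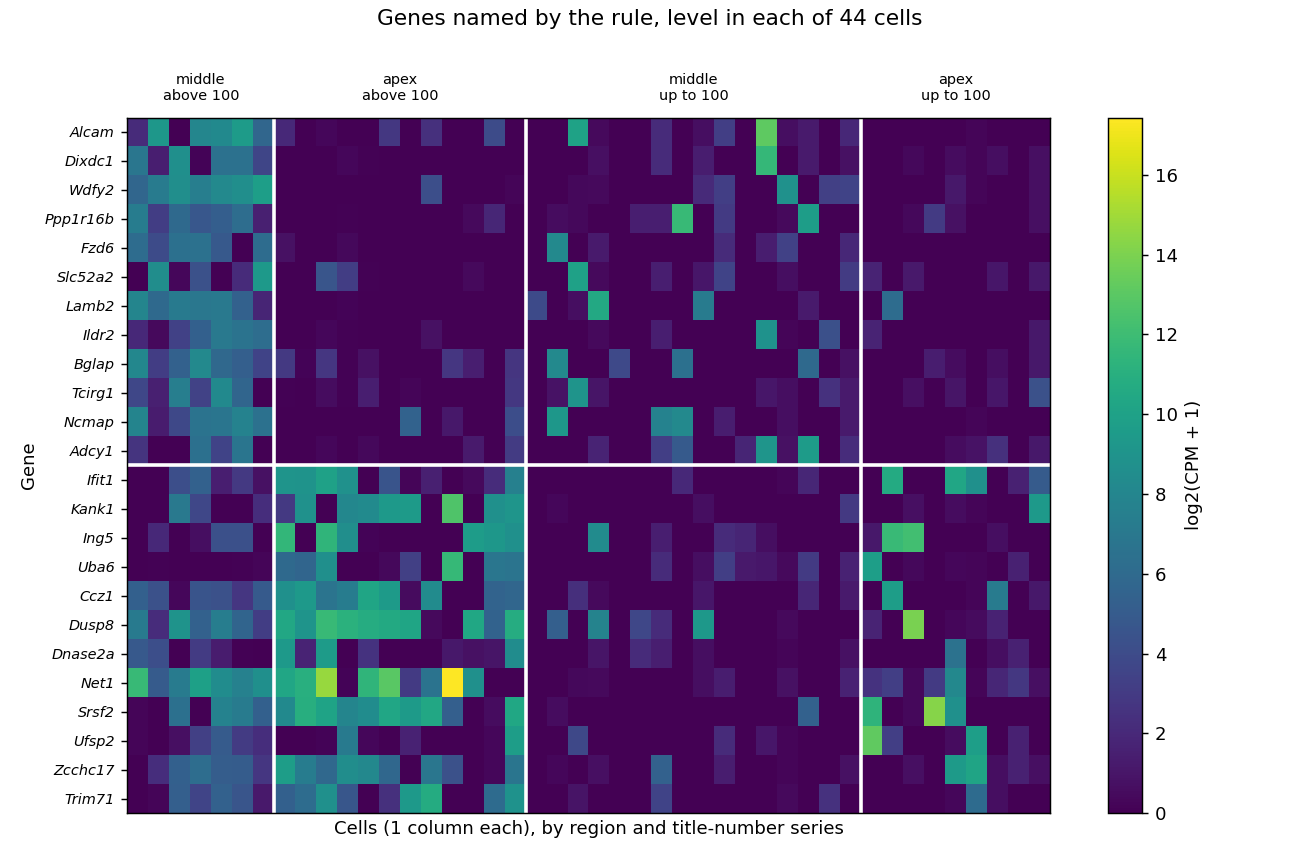
Level of the 24 genes named by the rule as log2(CPM + 1) (colour) in each of the 44 OHCs (columns, grouped by region and title-number series). The 12 genes higher in the middle (upper block) show in most of the 7 higher-numbered middle cells, although Adcy1 is at 0 in 3 of them. The 12 lower genes (lower block) show in varying numbers of the 12 higher-numbered apical cells, Ufsp2 reaching 10 CPM in 2 of them.

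Ifit1, the first of the lower genes, is an interferon-induced RNA-binding protein, which led to a closer look at genes of the interferon response, a list chosen after the values were seen. Interferons act through the factor ISGF3, whose DNA element is often met in the promoters of these genes. The promoters of Ifit1, lower in the middle, and Ifih1, higher in the middle, are shown because both hold the element's core. They are from RefSeq, GRCm38.p6, on the gene's strand, around the transcription start, at chr19:34640639-34640938 (plus strand) and chr2:62646206-62646505 (minus strand). Capitals mark GAAANNGAAA on either strand, where N is any base.
Ifit1: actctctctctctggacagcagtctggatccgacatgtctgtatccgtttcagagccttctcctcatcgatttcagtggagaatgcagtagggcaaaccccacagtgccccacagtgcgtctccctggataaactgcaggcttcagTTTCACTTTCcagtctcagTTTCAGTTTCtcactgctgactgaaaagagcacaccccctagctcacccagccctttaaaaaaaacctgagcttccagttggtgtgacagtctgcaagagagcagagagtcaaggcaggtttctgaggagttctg
Ifih1: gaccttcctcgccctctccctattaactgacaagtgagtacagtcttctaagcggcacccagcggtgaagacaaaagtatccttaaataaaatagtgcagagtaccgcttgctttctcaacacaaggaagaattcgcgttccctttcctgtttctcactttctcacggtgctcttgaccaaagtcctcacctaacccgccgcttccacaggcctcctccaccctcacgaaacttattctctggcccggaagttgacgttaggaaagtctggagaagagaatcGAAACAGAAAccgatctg
This core was found in 1131 of 32851 promoters of the same length (3.44%) and in 11 of the 21 listed interferon genes that had a promoter in the table. A match is a description of these letters and not of binding.

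Ifit1 (chr19:34640871-34650009, plus strand) stood at 5.26 CPM in the middle (Poisson interval 4.87 to 5.68) and 347 CPM at the apex (343 to 350), a log2 ratio of -5.79. In higher-numbered cells it ran from 0 to 42.7 CPM in the middle and from 0 to 1012 CPM at the apex, with 5 of 12 apical cells above 100 CPM. In lower-numbered cells 3 of 9 apical and 0 of 16 middle cells were above 100 CPM. Ifih1, the cytoplasmic RNA sensor MDA5, went the other way at 76.4 and 0.0597 CPM. It ran from 17.6 to 667 CPM in higher-numbered middle cells and was at most 0.171 CPM in apical cells, and 1 cell held 74.1% of the middle counts.

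Of the 26 interferon genes 19 passed the filter, 11 were 2-fold or more higher in the middle and 4 lower (median 2.06). In the lower-numbered cells 2 were higher and 7 lower (median 0.04). B2m, the light chain of MHC class I, had a median of 239 CPM (29.1 to 921) in higher-numbered middle cells and 2.47 CPM (0 to 257) in apical cells. H2-D1, a class I heavy chain whose family members are near-identical, was higher in both series with a pooled ratio of 4.27. Ifit1 and Ifih1, both with the core in their promoter, stood on opposite sides.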

How the data were processed

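Single-cell RNA libraries were sequenced on Illumina per the labels' protocols, and the authors deposited unnormalised counts by gene in 1 table. Trimmomatic, HISAT2, featureCounts of Subread 1.4.6 and the builds GRCm38 and mm10 are named per the submitters' processing notes. The sources used here do not state the strand setting, the handling of multi-mapping reads or any molecular identifiers. Symbols and coordinates came from GENCODE M21, where 55154 of 55335 identifiers matched without their version, and the 181 others held 0.00885% of the counts.

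Counts were summed per group and scaled over all 6 type and region sums with TMM of edgeR 4.0.16. Ratios are log2 of (CPM + 1), which understates low genes. The filter was 5 CPM in either group. The 36 gene lists and the members were chosen with earlier results of these data known. Named genes are the 12 per direction of the rule given above, 30 always examined genes, and the highest, the lowest and the steady members of each list. The interferon list and single examples beside these were chosen after their values were seen. Titles tie each column to a cell, and 0 columns stayed unused. No cell was left out and no doublet caller was run. On simulated cells with known folds only the ratio of summed counts was checked, and against counting noise alone. TMM, the title-number series, the naming rule and thinning were not part of that check. Alternatives were other scalings (DESeq2 1.42.0), pseudocounts, filters, cell weights, cell choices and thinning.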

Additional observations from a re-analysis of the deposited data

How the results depend on the processing

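Most alternatives changed 1 choice. Those by the mean or the median of the cells changed the weighting and also used each cell's own total in place of TMM. The mean and the median of the cells above 100 changed the cells used as well, and thinning left out the shallowest cells. The pooled counts of 3903 higher and 4427 lower genes were 518 and 776 by the median of the cells, 1995 and 2068 in title numbers up to 100, and 1993 and 2824 with at least 20 CPM in either group, where fewer genes enter. By the median of the cells with title numbers above 100, an alternative added after seeing the data, 404 genes were lower. With only the cells that held 10 CPM of both Ocm and Slc26a5, also added after seeing the data, the counts were 3831 and 4532, and with thinned cells 3968 and 4367. Genes were followed through the alternatives only if named by the rule or among the 30 always examined. Other extreme or steady members of the lists were not followed, so their absence below does not show a stable direction. Among list medians and followed genes with a pooled ratio of 2-fold or more, directions turned in the cases of the next paragraph, and the cause was not tested. Smaller list medians turned too: in title numbers up to 100 neurons and glia stood at -1.69 and ribosomal proteins at -0.76, and by the median of the cells above 100 splicing factors stood at 1.6, against 0.60 for all genes.

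In title numbers up to 100, tubulins and microtubule proteins stood at -0.13, Calb1 at -1.37, Chrna10 at 0.16, Chrna9 at -0.89, Gfi1 at 0.16, Lhfpl5 at 6.46 and Myo7a at 0.84. Chrna10 and Gfi1 were near the floor there, each at 0 in 13 of 16 middle cells and in 8 and 7 of 9 apical cells. The mean of both series gave 2.37 for Lhfpl5. The median of all cells gave 0.13 for tip link and ankle link genes, -0.27 for Chrna9, 0.20 for Kcnn2, 0.81 for Myo7a and 0.44 for Pcdh15. The median of the cells above 100 gave 0.64 for general hair cell genes, 0.035 for OHC markers, 0.77 for tip link and ankle link genes and 3.71 for apoptosis and p53 genes. It gave 0.36 for Chrna10, 0.26 for Dnase2a, 5.47 for Gfi1, 4.74 for Kcnn2, 2.27 for Myo7a and 2.18 for Ufsp2. No paired analysis was possible because each group is 1 sample and the title numbers tie no cell of one region to a cell of the other. With 1 sample a group, the spread between animals cannot be given, and depth limits what a 0 in a shallow cell can show.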
